A study of Mus musculus with 12 samples.

Results

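Surface proteins that are used to sort mouse blood stem and progenitor cells were described at the level of their mRNA. The genes were Kit, Ly6a, Cd34, Flt3, Slamf1, Cd48, Thy1, Esam and Cd27, taken by symbol from the deposited table of 20457 genes. Of 10 names looked for, 9 had a row of their own, and the other, Slamf2, is another name of Cd48. The series is RNA sequencing of hematopoietic stem cells (HSC) from the bone marrow of C57BL/6 mice, with 50 cells sorted by FACS into each library and amplified by Smart-Seq2, a full-length cDNA method. Its 4 groups of 3 libraries were old IL27RA+ cells and old IL27RA− cells (28 months), and young IL27RA+ cells and young IL27RA− cells (2 months), where IL27RA is the surface receptor subunit for the cytokine IL27. The antibodies behind the stem cell gate, and so which of the 9 proteins were selected on before RNA was taken, are not given here. Whether libraries of the same group are separate animals is not stated either, so a p-value covers just the spread from library to library, and that spread may be technical.

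In mouse marrow, cells that lack the antigens of mature lineages and carry KIT and SCA-1 (the product of Ly6a) hold both stem cells and multipotent progenitors. Within these, SLAMF1 (CD150) marks the stem cells, while CD48, FLT3 and CD34 appear as stem cells turn into progenitors. The sort reads protein on the cell surface and the data here are mRNA, so a gated level of protein does not fix the level of the transcript.

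Libraries held 11669083 to 24153167 reads in genes, and 1 read was worth 0.644 to 1.26 normalized counts. Of 17 stem cell restricted genes, 17 had reads in every library. So had some genes of other cells, such as Lsp1 of multipotent progenitors and Cd68 of macrophages, so reads alone do not identify the cells. Il27ra mRNA itself did not separate the sorted fractions, with a difference of −0.08 in old cells and −0.11 in young cells (IL27RA+ minus IL27RA−, log2, limma adjusted p = 1 and 0.953). The source label of old IL27RA− replicate 1 says young, against its title and its age. The same library held 313748 normalized counts summed over 6 B and plasma cell genes, against 710 to 1458 in the other libraries. Igkc alone gave 312300 of them, while in the old IL27RA− group Cd79a reached at most 432 and Ighm had 0 reads. Old IL27RA− replicate 1 and young IL27RA− replicate 2 were taken as the libraries farthest from their groups, and no distance is given here. Leaving out both turned the sign of 11 of 56 marker differences, none of which had passed the threshold. In libraries made from many cells, fewer cells that express a gene and less RNA of it per cell cannot be told apart.

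The markers covered a wide range of levels. Per kilobase of exon, averaged over all 12 libraries, Cd27 stood at 1854 normalized counts, Esam at 960, Kit at 898, Ly6a at 557 and Cd34 at 429. Slamf1 stood at 161 normalized counts per kilobase, Flt3 at 39.3, Thy1 at 5.11 and Cd48 at 1.99. Kit, Ly6a and Slamf1, which a stem cell gate requires, had reads in every library, but so had Cd34, Flt3, Esam and Cd27. Reads in every library therefore do not set the required markers apart. Cd48, which such a gate leaves out, was the lowest of the 9. Neighbouring genes in this order overlapped in their ranges over the 12 libraries where they were close, as Esam and Kit did at 391 to 1284 and 650 to 1146 normalized counts per kilobase. Cd34 and Flt3, which are not neighbours, did not overlap, at 264 to 752 and 3.43 to 146. Slamf1, between them, spanned 55.6 to 288 and overlapped both. Exon lengths come from the GENCODE mouse annotation, so the order of levels between genes is given on this scale.

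**Figure D1:**
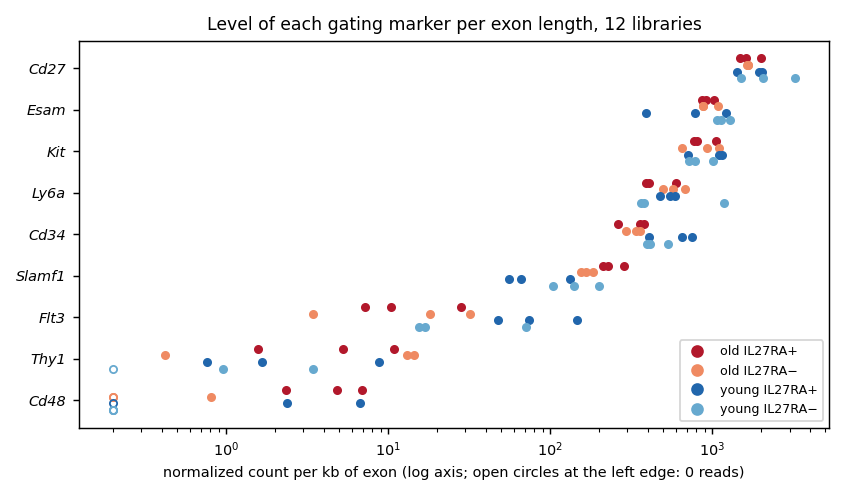
Level of each marker gene per kilobase of exon in the 12 libraries, on a log axis, with 1 point for each library coloured by group and open circles at the left edge for libraries with 0 reads. Cd27, Esam, Kit, Ly6a and Cd34 lie to the right, Slamf1 and Flt3 in the middle, and Thy1 and Cd48 reach 0.

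The genes differed as much in how steady they were. The SD of the log2 value over the 12 libraries was 0.29 for Kit, 0.32 for Cd27, 0.44 for Cd34, 0.45 for Esam and 0.47 for Ly6a, against a median of 0.74 over the 14723 genes tested. Slamf1 came near that median with 0.71, and Flt3 with 1.53 and Thy1 with 1.80 lay above it. Flt3 and Thy1 were also the tested markers with the lowest levels. The median is over genes of all levels and no background matched for level was compared, so steadiness is not separated from level.

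Of the 9 genes, 8 passed the filter on low values (10 normalized counts in at least 3 of the 12 libraries) and entered a limma fit of all 14723 such genes, and Cd48 did not. All differences below are on the log2 scale of the normalized count plus 1, and the threshold is a Benjamini-Hochberg adjusted p of 0.05 over all genes tested. None of the 8 passed in any of 7 comparisons, by limma or by voom on the recovered reads. At an unadjusted p under 0.05 the count was 3 of 8 for old against young IL27RA+ cells, 0 for old against young IL27RA− cells, 3 for the age difference averaged over both fractions, and 1 for the difference between the age differences of the 2 fractions. For IL27RA+ against IL27RA− cells it was 0 of 8 in old cells, 2 in young cells and 0 averaged over both ages. Over all genes, the share called was 0.421% for age in IL27RA+ cells, 0.672% for age in IL27RA− cells and 1.88% for age averaged over both. The share was 0.0272% for the sorted fractions in old cells, 0.0204% in young cells, 0.19% averaged over the ages and 0% for the difference between the age differences. With so few genes called in all, 0 of 8 is no result about these markers. At an unadjusted p under 0.05 the share of all genes was 8.89% for age in IL27RA+ cells, 12.5% for age in IL27RA− cells and 15.1% averaged, and 762 genes (5.18%) had such a p for the difference between the age differences. For the sorted fractions the share was 5.38% in old cells, 8.21% in young cells and 7.97% averaged. The median difference of the 8 markers was −0.11 for age in IL27RA+ cells, −0.12 for age in IL27RA− cells, 0.00 for the sorted fractions in old cells and 0.10 in young cells. The medians over all genes in the same comparisons were 0.05, 0.04, 0.02 and 0.04.

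**Figure D2:**
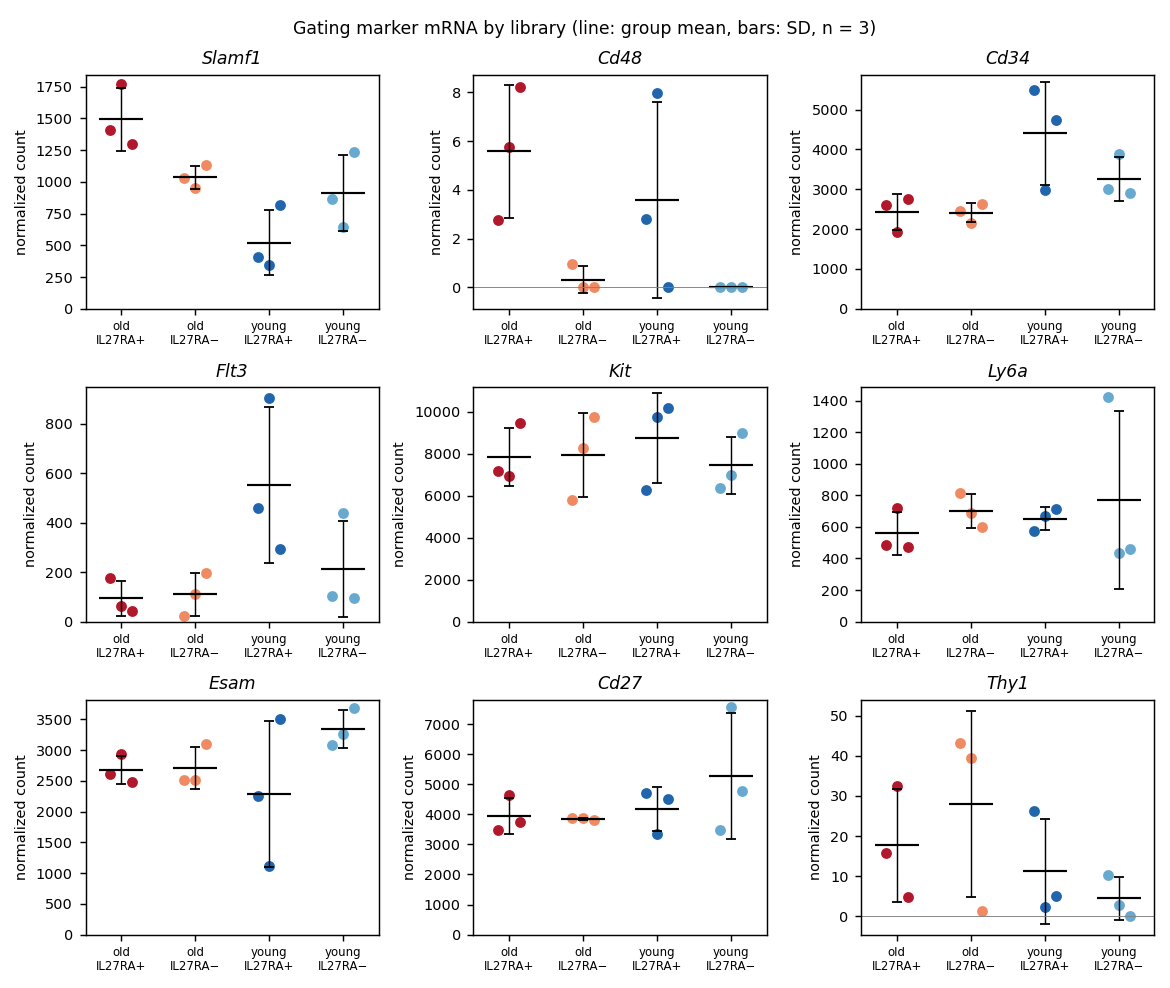
Normalized counts of the 9 marker genes in each library, in panels with their own axes, with points for libraries, a line for the group mean and bars for the SD (n = 3). Slamf1 is highest in the old IL27RA+ libraries and Cd34 is lower in every old library than in every young library, while Kit, Ly6a and Cd27 overlap between all groups.

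Slamf1 (ENSMUSG00000015316) encodes the founding receptor of the SLAM family, a self-binding immunoglobulin receptor that is the positive marker of the stem cell gate. Its libraries held 1406, 1770 and 1297 normalized counts in old IL27RA+ cells and 1028, 953 and 1133 in old IL27RA− cells. Young IL27RA+ cells held 407, 342 and 816, and young IL27RA− cells 866, 643 and 1233. The 3 old IL27RA+ libraries were the highest of all 12 and the lowest 2 were young IL27RA+ libraries. The group means were 1491 ± 248 in the old IL27RA+ group, 1038 ± 90.3 in the old IL27RA− group, 522 ± 257 in the young IL27RA+ group and 914 ± 298 in the young IL27RA− group (SD, n = 3). In this order of levels only old IL27RA+ and old IL27RA− cells, as neighbours, had ranges that did not overlap.

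Between the ages, the Slamf1 difference in IL27RA+ cells was 1.61 ± 0.36 (log2, SE, limma, 95% interval 0.84 to 2.37), a fold of 3.05, with an unadjusted p of 0.000474 and an adjusted p of 0.0767. Each old library was above each young library, which 9.11% of all genes also showed in this direction. In IL27RA− cells the age difference was 0.23 ± 0.36, with an interval of −0.54 to 1.00 and overlapping groups. Averaged over both fractions it was 0.92 ± 0.25 (limma adjusted p = 0.0854). The averaged age value and the value in IL27RA+ cells lay just outside the threshold, and leaving out single libraries placed them on either side of it. Without young IL27RA+ replicate 3, the library with 816 normalized counts, the limma differences were 1.98 (adjusted p = 0.039) in IL27RA+ cells and 1.11 (adjusted p = 0.0332) averaged. Over all alternatives the adjusted p ranged over 0.0201 to 0.344 for IL27RA+ cells and 0.0332 to 0.203 for the average, with no change of sign in either.

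Between the sorted fractions, the Slamf1 difference was 0.51 ± 0.36 (log2, SE) in old cells and −0.86 ± 0.36 in young cells (IL27RA+ minus IL27RA−, limma adjusted p = 1 and 0.57). In old cells each IL27RA+ library was above each IL27RA− library, as in 7.25% of all genes, and in young cells the groups overlapped. The difference between the age differences was 1.38 ± 0.51, with a limma unadjusted p of 0.0164 and an adjusted p of 0.895. The values of the fractions therefore had opposite signs at the 2 ages, and their difference did not pass the threshold over all genes.

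Cd48 (ENSMUSG00000015355) encodes a lipid-anchored receptor of the same family that most mature leukocytes and many progenitors carry, and its absence defines the stem cell side of the gate. The libraries held 3, 6 and 7 reads in old IL27RA+ cells and 1, 0 and 0 reads in old IL27RA− cells. Young IL27RA+ libraries held 3, 7 and 0 reads and all 3 young IL27RA− libraries held 0, where a count of 0 allows up to 3 reads in a library. These 27 reads correspond to at most 8.20 normalized counts in any library, so Cd48 was near the limit of detection in all of them. Reads lay in 5 of 6 IL27RA+ libraries and in 1 of 6 IL27RA− libraries. Pooled over both ages, IL27RA+ libraries held 26 reads of 88.4 M in genes and IL27RA− libraries held 1 read of 111 M, a ratio of 31.8 after scaling by the size factors, with an exact 95% counting interval of 5.23 to 1310. In old cells alone the reads were 16 and 1, a ratio of 15 with an interval of 2.33 to 630. Amplified reads are not independent molecules, so these intervals cover counting error only and compare the libraries, not the conditions.

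The pooled comparison of Cd48 was chosen after its values were seen. Among the 1064 genes with 20 to 40 reads in all, 7 (0.658%) had reads in at least 5 IL27RA+ libraries and in at most 1 IL27RA− library, and 0 had the reverse. Cd48 is itself among the 7, and these limits match its own pattern, so the share is not an independent background. A limma fit with no filter on low values gave Cd48 a difference of 2.00 ± 0.64 (IL27RA+ minus IL27RA−, averaged over both ages, log2, SE), an unadjusted p of 0.00761 and an adjusted p of 0.484 over 20457 genes. Genes of some other marrow cells and states lay higher in the same IL27RA+ fractions. Summed over 15 macrophage genes, old IL27RA+ libraries held 2127 to 9226 normalized counts and old IL27RA− libraries 939 to 1490. The young libraries held 5290 to 9717 in IL27RA+ and 903 to 1169 in IL27RA− cells, and of the 14 genes tested 4 were called higher in the averaged limma comparison, with Vcam1, C1qb and C1qc among them. Reads were found for 13 to 14 of the 15 in IL27RA+ libraries and for 7 to 12 in IL27RA− libraries. Summed over 13 genes of multipotent progenitors, the values were 11897 to 19585 in old IL27RA+, 8075 to 12198 in old IL27RA−, 12334 to 17241 in young IL27RA+ and 5992 to 8814 in young IL27RA− libraries. Much of that sum was Cdk6, a cell cycle kinase, at 11950 normalized counts in old IL27RA+, 5014 in old IL27RA−, 8052 in young IL27RA+ and 2814 in young IL27RA− libraries on average. It was the 1 of 9 tested that was called (1.38 ± 0.23, averaged, log2, SE, limma adjusted p = 0.0273). Lsp1 and Cd53 had lower means in old IL27RA+ than in old IL27RA− libraries. These were 2036 and 2461 normalized counts for Lsp1 and 1913 and 2365 for Cd53. In young cells both had higher means in IL27RA+ than in IL27RA− libraries, at 4250 and 3387 for Lsp1 and 535 and 294 for Cd53. Of the 9 progenitor genes tested, 6 had positive and 2 had negative differences between the fractions in old cells. Averaged over the ages, 9 of 9 were positive (median 1.46). In the averaged comparison of the fractions, 30 of 30 cell cycle genes had positive differences (2 called, median 2.98), as had 9 of 9 erythroid genes (0 called, median 2.07) and 6 of 7 granulocyte genes (0 called, median 2.41), against a median of 0.05 over all genes. The stem cell restricted genes had 15 of 17 negative differences (0 called, median −0.27). B and plasma cell genes had 1 of 5 positive differences, T and NK cell genes 2 of 5 and stroma genes 4 of 7, with 0 called in each. The part of such cells or states in the Cd48 reads was not tested.

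Slamf1 and Cd48 lie in the SLAM gene cluster of mouse chromosome 1, on the same strand, with start sites 85.1 kb apart and 1 protein-coding gene between them. Their promoter windows are shown because this pair holds the positive and the negative marker of the same gate, and Slamf1 had reads in every library while Cd48 was near the limit of detection. The windows are RefSeq sequence of build GRCm38.p6, from 250 bases before to 50 bases after the start of each gene, at chr1:171766882-171767181 for Slamf1 and chr1:171681742-171682041 for Cd48, both on the plus strand. Capitals mark matches to 4 short motifs of blood transcription factors, searched on both strands. The letters were AGATAA for the factor family of GATA2, then TGTGGT for the RUNX family, then CCGGAAG for the ETS family, and for the E-box the letters CACCTG.

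Slamf1: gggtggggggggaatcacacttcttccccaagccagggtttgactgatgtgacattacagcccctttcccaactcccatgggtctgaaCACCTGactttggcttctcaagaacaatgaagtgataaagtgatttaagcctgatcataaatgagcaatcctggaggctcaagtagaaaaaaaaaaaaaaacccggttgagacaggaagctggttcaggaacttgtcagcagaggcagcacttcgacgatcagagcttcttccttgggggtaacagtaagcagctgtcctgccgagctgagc
Cd48: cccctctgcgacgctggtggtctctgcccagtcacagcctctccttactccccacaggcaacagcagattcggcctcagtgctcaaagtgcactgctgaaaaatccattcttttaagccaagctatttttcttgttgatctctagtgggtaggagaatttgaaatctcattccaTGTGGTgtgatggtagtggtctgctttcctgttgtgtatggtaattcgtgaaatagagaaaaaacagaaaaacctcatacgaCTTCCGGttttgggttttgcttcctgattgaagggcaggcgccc

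The Slamf1 window held the E-box letters 162 bases before the start. The Cd48 window held the RUNX letters 76 bases before the start and, read on the opposite strand, the ETS letters from base 7 after it. Windows were also found for Cd34, Kit, Flt3 and Cd27, which gave 6 of the 9 genes, and none of those 4 held any of the motifs. Of 32851 windows in the RefSeq table, 11.2% held the GATA2 family letters, 16.8% RUNX, 8.86% ETS and 20.2% the E-box, so these matches are common ones. A match describes letters and is not a site, and no overlap between motifs occurred in the printed windows.

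Cd34 (ENSMUSG00000016494) encodes a sialomucin of the cell surface that marks progenitors in the mouse and is low or absent as a protein on the most dormant stem cells. Old IL27RA+ libraries held 2611, 1923 and 2761 normalized counts and old IL27RA− libraries 2456, 2157 and 2632. Young IL27RA+ libraries held 5486, 2983 and 4750, and young IL27RA− libraries 2997, 3884 and 2899. All 6 old libraries lay below all 6 young libraries, a separation that 0.672% of the genes tested showed in this direction. The averaged age difference was −0.63 ± 0.18 (log2, SE, limma, 95% interval −1.01 to −0.24), a fold of 0.648, with an unadjusted p of 0.00337 and an adjusted p of 0.0948.

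Within the fractions, the Cd34 age difference was −0.83 ± 0.25 in IL27RA+ cells and −0.42 ± 0.25 in IL27RA− cells (limma adjusted p = 0.279 and 0.516). The old and young libraries did not overlap in either fraction, as for 7.8% and 6.74% of all genes in this direction. Without young IL27RA+ replicate 2 the averaged difference was −0.76 (limma adjusted p = 0.0433), and over all alternatives its adjusted p ranged over 0.0433 to 0.224 with the same sign. Between the sorted fractions the values overlapped, with a difference of −0.0029 ± 0.25 in old cells and 0.40 ± 0.25 in young cells. The difference in old cells changed sign under 75th percentile scaling, quantile normalization and library weights.

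Flt3 (ENSMUSG00000042817) encodes the receptor kinase for FLT3 ligand, which marks lymphoid-primed progenitors. Its libraries held 175, 64.2 and 44.5 normalized counts in old IL27RA+ cells and 21.2, 112 and 197 in old IL27RA− cells. Young IL27RA+ libraries held 460, 903 and 295, and young IL27RA− libraries 104, 438 and 95.3. Each old IL27RA+ library was below each young IL27RA+ library, as for 7.8% of all genes, while the IL27RA− libraries of both ages overlapped. The age difference was −2.63 ± 0.94 in IL27RA+ cells (log2, SE, limma, 95% interval −4.63 to −0.63, adjusted p = 0.393) and −1.05 ± 0.94 in IL27RA− cells (adjusted p = 0.691). Averaged over the fractions it was −1.84 ± 0.66 (limma adjusted p = 0.199).

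Flt3 leaned on the libraries that stood apart. Without old IL27RA− replicate 1 and young IL27RA− replicate 2 together, the age difference in IL27RA− cells was 0.57 and the averaged one −1.03 (limma adjusted p = 0.924 and 0.451). Without old IL27RA− replicate 1 alone the IL27RA− value was −0.14, and without young IL27RA− replicate 2 alone it was −0.35. The value in IL27RA+ cells does not use those libraries and remained −2.63. Between the sorted fractions the Flt3 difference was 0.02 ± 0.94 in old cells and 1.60 ± 0.94 in young cells, with limma adjusted p = 0.677 for young cells. The value in old cells changed sign under quantile normalization, under a pseudocount of 10, under library weights and without both libraries that stood apart, where it was −0.90.

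**Figure D3:**
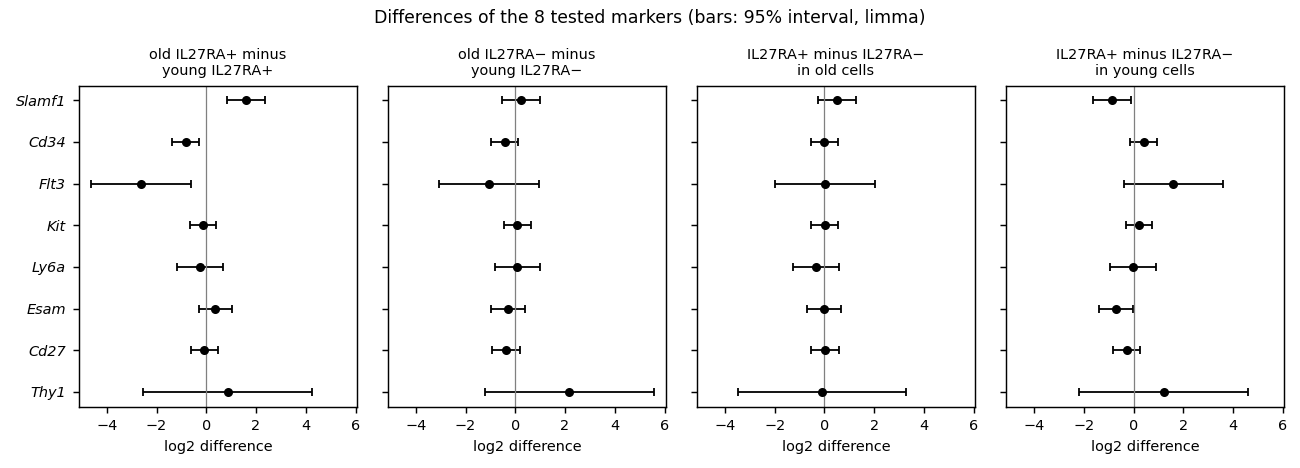
Differences of the 8 tested markers on the log2 scale (limma, bars show the 95% interval), with old minus young in IL27RA+ and in IL27RA− cells at the left and IL27RA+ minus IL27RA− in old and in young cells at the right. In IL27RA+ cells Slamf1 lies at 1.61, Cd34 at −0.83 and Flt3 at −2.63, and no marker passed the adjusted threshold.

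Within single libraries, the balance of Slamf1 against the progenitor markers followed age most clearly in IL27RA+ cells. The pairs were chosen after the values were seen and got no test. Slamf1 minus Cd34, in log2 of the same library, was −1.09 to −0.12 in old IL27RA+ libraries and −1.26 to −1.18 in old IL27RA− libraries. It was −3.75 to −2.54 in young IL27RA+ and −2.59 to −1.23 in young IL27RA− libraries. A difference taken within a library does not depend on how libraries were scaled, and by it all 3 young IL27RA+ libraries lay below all 6 old libraries. How many other gene pairs separate in this way was not counted, so the separation is a description only. Slamf1 minus Flt3 was 3.00 to 4.83 in old IL27RA+ and 2.52 to 5.54 in old IL27RA− libraries, and −1.40 to 1.47 in young IL27RA+ and 0.55 to 3.68 in young IL27RA− libraries. Gene length is not taken out of these differences, so they compare libraries and do not rank one gene above the other.

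**Figure D4:**
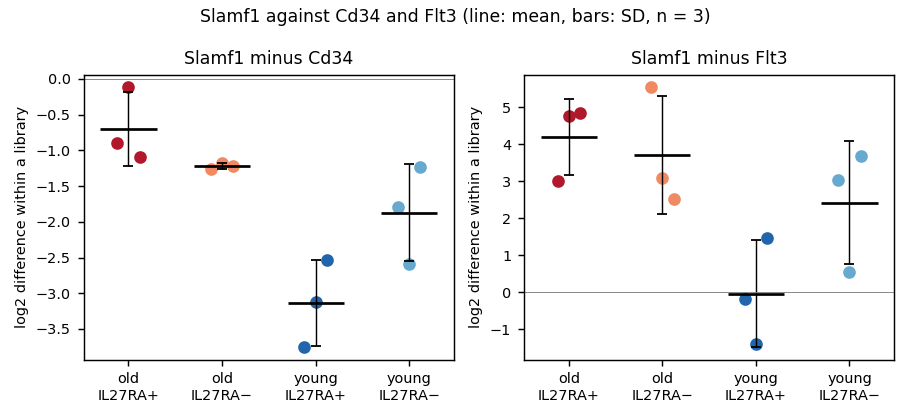
Log2 difference within each library of Slamf1 minus Cd34 (left) and of Slamf1 minus Flt3 (right), with points for libraries, a line for the group mean and bars for the SD (n = 3). Young IL27RA+ libraries are the lowest group in both panels, at −3.75 to −2.54 against Cd34 and −1.40 to 1.47 against Flt3.

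Kit and Ly6a, the positive markers of the broad gate, overlapped between all groups. Kit (ENSMUSG00000005672) encodes the receptor kinase for stem cell factor, and its group means were 7859 ± 1388 normalized counts in old IL27RA+, 7945 ± 2003 in old IL27RA−, 8755 ± 2156 in young IL27RA+ and 7451 ± 1357 in the young IL27RA− group (SD, n = 3). Its 12 libraries spanned 5791 to 10208 normalized counts with overlap between every pair of groups. The 95% intervals of the Kit differences were −0.67 to 0.40 for age in IL27RA+ cells, −0.46 to 0.61 for age in IL27RA− cells, −0.53 to 0.54 for the fractions in old cells and −0.32 to 0.75 in young cells. In either direction these intervals reach at most 0.75 on the log2 scale.

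Ly6a (ENSMUSG00000075602) encodes SCA-1, a lipid-anchored protein of the LY6 family. Its libraries held 488, 718 and 470 normalized counts in old IL27RA+, 817, 690 and 600 in old IL27RA−, 574, 666 and 715 in young IL27RA+ and 1422, 435 and 459 in the young IL27RA− group. The mean of young IL27RA− cells, 772 ± 563 (SD, n = 3), rested on replicate 1, since the other two libraries were the lowest of all 12. No Ly6a difference had an unadjusted p under 0.05, and 4 of its 7 differences changed sign when 1 library was left out. The signs of age in IL27RA+ cells and of the fractions in old cells held, at −0.44 to −0.13 and −0.54 to −0.23. The LY6 genes are close copies of each other, so reads could be shared or split among them and the level of Ly6a is uncertain.

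Thy1 (ENSMUSG00000032011) encodes the small lipid-anchored glycoprotein whose low level once defined mouse stem cells. Reads numbered 17, 34 and 4 in old IL27RA+ libraries, 45, 38 and 1 in old IL27RA−, 28, 2 and 4 in young IL27RA+ and 13, 4 and 0 in young IL27RA− libraries. Each group held a library with 4 reads or fewer beside others with more, so the spread within groups was as large as that between them. The averaged age difference of 1.52 had a 95% interval of −0.88 to 3.91 (log2, limma), and no direction of Thy1 could be read at this depth.

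Esam (ENSMUSG00000001946) encodes an adhesion molecule of endothelium and platelets that is also on the surface of stem cells. Old IL27RA+ libraries held 2609, 2932 and 2483 normalized counts, old IL27RA− libraries 2513, 2507 and 3102, young IL27RA+ libraries 2247, 1122 and 3499, and young IL27RA− libraries 3088, 3263 and 3680. The old fractions overlapped and the young IL27RA+ libraries were the most spread. The IL27RA+ minus IL27RA− difference was −0.01 ± 0.32 in old cells and −0.69 ± 0.32 in young cells (log2, SE, limma adjusted p = 1 and 0.603), with an unadjusted p of 0.0465 in young cells. The value in young cells rested on young IL27RA+ replicate 2, without which it was −0.25 (limma adjusted p = 0.896, and 0.401 to 0.896 over all alternatives).

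Cd27 (ENSMUSG00000030336) encodes a receptor of the TNF receptor family that is on stem cells and multipotent progenitors and binds CD70. Its means were 3952 ± 606 normalized counts in old IL27RA+, 3849 ± 39.2 in old IL27RA−, 4183 ± 744 in young IL27RA+ and 5278 ± 2095 in the young IL27RA− group (SD, n = 3). The highest value, 7579, was that of young IL27RA− replicate 2, and the other 11 libraries lay between 3334 and 4774. The intervals were −0.63 to 0.48 for age in IL27RA+ cells and −0.94 to 0.17 for age in IL27RA− cells, and no difference of Cd27 had an unadjusted p under 0.05.

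Genes of the same pathways were described from lists of known partners and relatives. Of 24 ligands, counter-receptors and direct signalling partners of the markers found in the table, 23 were tested and 2 were higher in old cells in the averaged age comparison by limma, with a median of 0.09 against 0.06 over all genes. Sos1, the exchange factor that couples receptor kinases such as KIT to RAS, stood at 1137 normalized counts in old and 477 in young cells (log2 difference 1.36 ± 0.30 SE, limma adjusted p = 0.0328). Selp, P-selectin, stood at 6276 in old and 201 in young cells (6.34 ± 0.87, limma adjusted p = 0.00104). Its young IL27RA− libraries spanned 3.18 to 584 normalized counts and its young IL27RA+ libraries 147 to 263. The log2 difference averages logs, so the lowest libraries make it larger than the ratio of the means. None of the partners was called between the sorted fractions, where their median was 0.13 averaged over the ages against 0.05 over all genes. Kitl, the ligand of KIT, had reads in 4 of 12 libraries, while Flt3l, the ligand of FLT3, had 431 to 1018 normalized counts in every library.

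Among 9 other SLAM family genes and adaptors in the table, 4 were tested and none was called in any of the 7 comparisons. Cd84 and Ly9 had reads in every library, Cd84 with 1835 to 3650 and Ly9 with 53.9 to 555 normalized counts. Slamf8 averaged 33.0 ± 19.2 normalized counts in old IL27RA+ and 233 ± 55.4 in old IL27RA− cells, while Cd244, a receptor for CD48, averaged 26.2 ± 6.99 in old IL27RA+ and 4.60 ± 7.98 in old IL27RA− cells (SD, n = 3). Of 6 other LY6 genes, 2 were tested, and Ly6e rose with age, at 12291 normalized counts in old and 8174 in young cells (0.58 ± 0.13, limma adjusted p = 0.0388). Of 13 closest relatives in structure, 8 were tested, and Jam2, a junctional adhesion molecule related to Esam, was the single one called.

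The other surface genes used to gate stem and early progenitor cells held more called genes than the 9 markers. Of 28 found, 27 were tested and 6 passed in the averaged age comparison, where 1.88% of all genes did. Higher in old cells were the adhesion molecule Alcam (1.99 ± 0.23, log2, SE, limma adjusted p = 0.000387), Jam2 (1.89 ± 0.23), the integrin chains Itga6 (1.34 ± 0.19) and Itgb3 (2.02 ± 0.41), and the tetraspanin Cd9 (0.72 ± 0.14). Emcn, endomucin, was lower in old cells (−1.21 ± 0.22, limma adjusted p = 0.00917). The median of the 27 was 0.24 against 0.06 over all genes. The list was assembled with earlier results of these data known, so its share called is a description and is no support for a trend.

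By group, Alcam averaged 2979 ± 540 normalized counts in old IL27RA+ and 5520 ± 2207 in old IL27RA− cells, against 1064 ± 440 in young IL27RA+ and 986 ± 183 in the young IL27RA− group (SD, n = 3). Emcn averaged 735 ± 19.6 in old IL27RA+ and 950 ± 261 in old IL27RA− libraries, against 1963 ± 757 in young IL27RA+ and 1944 ± 32.3 in young IL27RA− libraries. Jam2 was also called within both fractions, and Alcam and Itga6 within IL27RA− cells. Between the sorted fractions 1 of the 27 was called in the averaged comparison, Neo1, the guidance receptor neogenin, at 233 normalized counts in the positive and 862 in the negative fraction (−2.20 ± 0.41, limma adjusted p = 0.0488). Procr, the endothelial protein C receptor (CD201 or EPCR), lay just outside the threshold in both directions of the design, with 0.56 ± 0.14 for age (adjusted p = 0.0555) and −0.71 ± 0.14 for the fractions (IL27RA+ minus IL27RA−, limma adjusted p = 0.056).

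**Figure D5:**
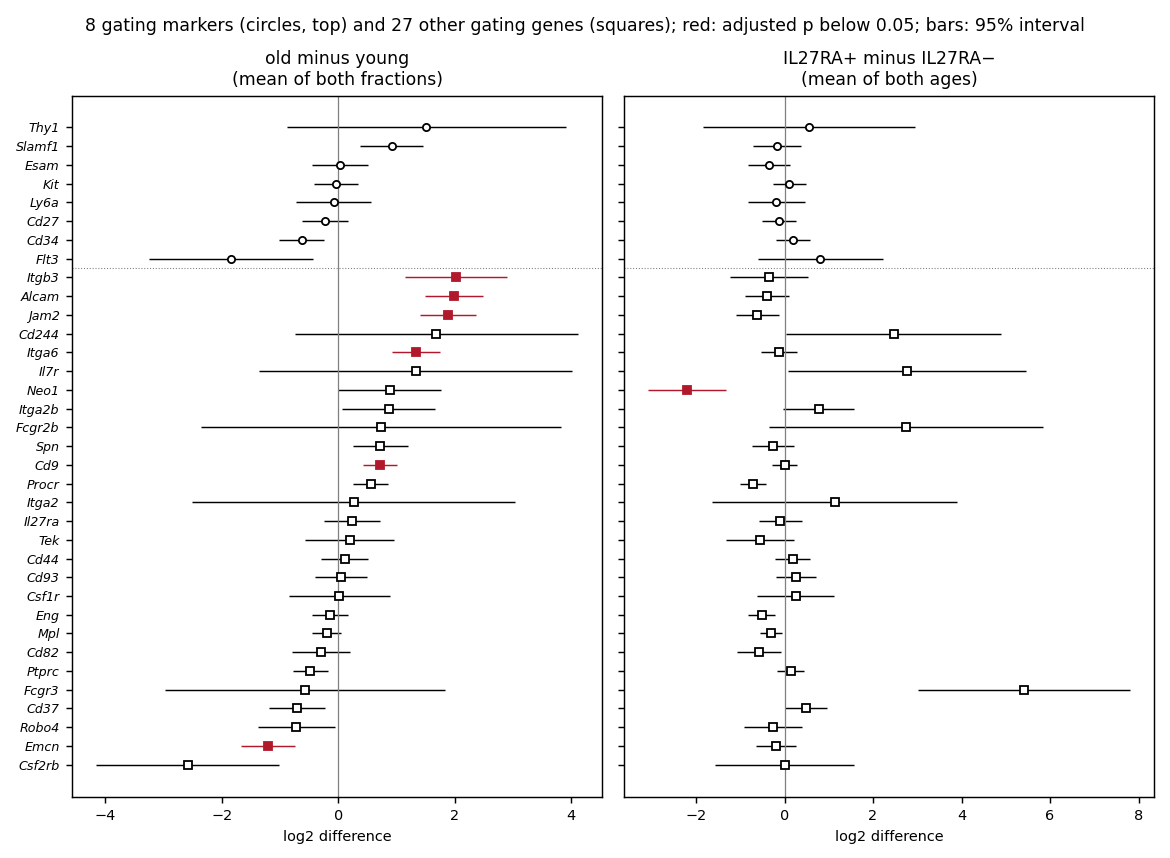
Averaged log2 differences of the 8 tested markers (circles, above the dotted line) and of 27 other gating genes (squares), old minus young at the left and IL27RA+ minus IL27RA− at the right, with 95% intervals from limma and filled red symbols for genes past the adjusted threshold. At the left Alcam, Jam2, Itga6, Itgb3 and Cd9 are red on the positive side and Emcn on the negative side, and at the right Neo1 alone is red.

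Of 19 antigens of the usual lineage depletion antibodies looked for, 10 were found in the table and 5 were tested. A library had reads for 2 to 7 of the 10. Summed over the 10, libraries held 88.8 to 2933 normalized counts. Klrb1c, which encodes the natural killer cell antigen NK1.1, was the 1 called, at 1459 normalized counts in old and 168 in young cells (3.53 ± 0.62, log2, SE, limma adjusted p = 0.00793). It averaged 884 ± 439 in old IL27RA+ and 2034 ± 794 in old IL27RA− cells, against 164 ± 50.8 in young IL27RA+ and 172 ± 237 in the young IL27RA− group (SD, n = 3).

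Across the 12 libraries the markers did not vary as a single block. Over the 28 pairs of tested markers, Pearson's r of the log2 values was lowest between Flt3 and Slamf1 at −0.75 (rho −0.74) and highest between Slamf1 and Esam at 0.61 (rho 0.22). Cd34 and Slamf1 gave −0.66, Cd34 and Flt3 gave 0.60, and Kit and Thy1 gave −0.67. The points span the 4 groups, so group differences enter each r, and it is a description of these libraries.

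The genes most like each marker were taken as the 3 with the highest Pearson's r over the 12 libraries. For Slamf1 they were Shc4 (0.89), Ccnd1 (0.89) and Rpp14 (0.88), and for Cd34 they were Dicer1 (0.87), Gli2 (0.86) and Kcnk12 (0.85). Esam was most like Tek (0.94, rho 0.76), the angiopoietin receptor and another gating gene, followed by C1ra and Srp54c (0.93 each). Flt3 was most like Mms19 (0.92), Kit like Tssk6 (0.88), Ly6a like Trim17 (0.89), Thy1 like Rpl6 (0.92) and Cd27 like Lrch3 (0.90). With 14723 genes searched over 12 libraries, values of this size are found for every marker.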

How the data were processed

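The values that the authors deposited are on a log2 scale, per gene and library. From their steps they hold reads over a library's size factor with 1 added before the log, and undoing this returned whole reads for 100% of values, within 0.001 reads. The submitters' processing notes name TopHat2 2.1.1, HTSeq, DESeq2 and FastQC 0.11.5 without saying what each did. The genome build was not given in the sources used. Of 20473 lines, 1 damaged line and 15 repeated genes were left out, and 21 names turned into dates were restored. Of 20457 genes, 19007 (92.9%) matched the GENCODE mouse annotation, used for exon lengths.

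Normalized counts undo the log of the deposited values and take off the pseudocount of 1. The deposited log2 values of all 12 libraries were fitted with limma 3.58.1 in R 4.3.3 (variance trend, 1 mean per group, 8 residual and 6.62 prior degrees of freedom), on genes with at least 10 normalized counts in 3 libraries, with Benjamini-Hochberg adjustment over 14723 genes. The fit was tested on simulated data. Differences on this scale understate changes of low genes. No count model was the main test because the table holds log2 values; voom on the recovered reads was an alternative. Other alternatives were the scaling, pseudocount, filter, library weights, replicate block, the groups fitted and each library left out. Cd48 reads were pooled with an exact counting interval, chosen after seeing the data, as was leaving out both libraries farthest from their groups.

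The members, gene lists and motifs were chosen with earlier results of these data known. Genes named are all members, list genes called in any comparison (or the 2 with the smallest p), and the 3 most correlated genes; other list genes named for their level were chosen after their values were seen. Depth was 11.7 to 24.2 M reads in genes.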

Additional observations from a re-analysis of the deposited data

How the results depend on the processing

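Of 1233 values of the 56 marker differences under the alternatives, 1162 kept their direction and their side of the threshold, 66 changed sign, 5 passed the threshold and 0 lost it, as none had passed. The 5 were Slamf1 for age in IL27RA+ cells under library weights (1.63, limma adjusted p = 0.0201) and without young IL27RA+ replicate 3 or young IL27RA− replicate 2, Slamf1 for age averaged without young IL27RA+ replicate 3, and Cd34 for age averaged without young IL27RA+ replicate 2. The cause was not tested. The sign changes were among differences near 0 or with wide intervals. For age they were Thy1 in IL27RA+ cells (quantile normalization −0.30), in IL27RA− cells Kit (quantile −0.038) and Ly6a (weights −0.0058), and Kit averaged (75th percentile scaling 0.027, weights 0.011). For the fractions in old cells they were Cd34 (75th percentile 0.077, quantile 0.039, weights 0.013), Esam (75th percentile 0.066, quantile 0.040), Flt3 (quantile −0.32, pseudocount of 10 −0.026, weights −0.32), Kit (weights −0.12) and Thy1 (weights 0.047). In young cells Ly6a gave 0.12 (75th percentile) and 0.0099 (voom), and Thy1 averaged gave −0.20 (quantile).

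Leaving out single libraries, or both libraries farthest from their groups (a setting added after seeing the data), gave sign changes within these ranges. For age in IL27RA+ cells, Cd27 ranged over −0.23 to 0.019 and Esam over −0.071 to 0.75. In IL27RA− cells, Flt3 ranged over −1.72 to 0.57, Kit over −0.089 to 0.29 and Ly6a over −0.33 to 0.64. Averaged, Kit ranged over −0.14 to 0.075, Esam over −0.19 to 0.22 and Ly6a over −0.29 to 0.20. For the fractions in old cells, Cd27 ranged over −0.093 to 0.12, Cd34 over −0.10 to 0.16, Esam over −0.082 to 0.088, Flt3 over −0.90 to 0.68, Kit over −0.21 to 0.17 and Thy1 over −1.52 to 0.62. In young cells, Cd27 ranged over −0.54 to 0.021 and Ly6a over −0.32 to 0.54. Averaged over ages, Cd27 ranged over −0.26 to 0.026, Kit over −0.015 to 0.22, Ly6a over −0.33 to 0.096 and Thy1 over −0.16 to 0.97. The difference between the age differences of Ly6a ranged over −0.88 to 0.085. Without both libraries together, 11 signs turned. They were Ly6a (−0.33) and Flt3 (0.57) for age in IL27RA− cells, Kit for age averaged (0.056), and for the fractions in old cells Kit (−0.21), Cd34 (0.012), Flt3 (−0.90) and Thy1 (0.62). The others were Cd27 for the fractions in young cells (0.021) and averaged (0.026), Kit for the fractions averaged (−0.015) and Ly6a for the difference between age differences.

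Counts over all genes moved more. For age in IL27RA+ cells 62 genes became 13 by voom, 137 with library weights (1 marker, Slamf1) and 37 with only these groups fitted. For age in IL27RA− cells 99 became 64 with no filter and 0 with only these groups. For the fractions in old cells 4 became 10 with a pseudocount of 10, 0 by voom, 86 with weights and 33 with only these groups, and in young cells 3 became 1 by quantile normalization, 6 with a pseudocount of 10, 8 with no filter, 1 with a stricter filter and 0 by voom, weights and only these groups. Averaged over ages 28 became 14 with no filter, 9 with a stricter filter, 6 by voom and 47 with weights. Quantile normalization split the averaged age calls into 186 higher and 91 lower, against 206 and 71. 75th percentile scaling moved the median of all genes by 0.13 for the fractions in young cells and 0.10 averaged. Leaving libraries out gave 4 to 97 genes for age in IL27RA+ cells, 25 to 281 in IL27RA− cells and 140 to 434 averaged. For the fractions it gave 1 to 25 in old cells, 0 to 50 in young cells and 6 to 96 averaged, and 0 to 5 for the difference between age differences. The markers called were 0 to 1 for age in IL27RA+ cells and for age averaged, and 0 in the other comparisons.

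Replicate numbers are shared between groups, and same-numbered libraries deviated together weakly at most (r −0.05 to 0.11 over 18 pairs, 1 above 0.1). Within an age, r was positive in every pair, at 0.0038 to 0.095 in old and 0.016 to 0.11 in young libraries. Whether same-numbered libraries of an age share an animal is not stated, and correlations this small do not settle it. With the replicate block, the fractions gave 2 genes in old cells and 0 in young cells, age gave 43, 99 and 319 in IL27RA+ cells, in IL27RA− cells and averaged, and no marker was called. With the replicate block within age, the fractions gave 0 genes in old cells, 0 in young cells and 3 averaged.

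Depth limits Cd48, with 27 reads in all, and Thy1, with 190 reads in all and 4 or fewer in 6 libraries. Fits of only the groups compared were not made for averages or for the difference between age differences, and the block within age was made only for the fractions.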
